A study of Homo sapiens with 36 samples.

Results

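The miRNAs of the miR-15/16 family and their cluster partners were followed through senescence of WI-38, human diploid fibroblasts from normal lung. The members are 7 mature miRNAs taken by name from 3 gene clusters, hsa-miR-15a-5p, hsa-miR-15b-5p, hsa-miR-15b-3p, hsa-miR-16-5p, hsa-miR-16-2-3p, hsa-miR-195-5p and hsa-miR-497-5p, of 1508 miRNAs listed in the small RNA data. All 7 were listed, 5 had enough counts to be tested among 360 miRNAs, and miR-195-5p and miR-497-5p did not. The data comprised 36 libraries from 18 conditions with 2 biological replicates each. Young proliferating cells without treatment served as the control (Ctrl). Senescence after plasma membrane damage (PMD-Sen) was induced with 0.0095% SDS, a detergent, for 24 h. Senescence after a DNA damage response (DDR-Sen) was induced with 250 nM doxorubicin (DXR), a drug that damages DNA, for 24 h. Both series were sampled at 8 time points, daily from D0, the end of the treatment, to D4 and then at D6, D8 and D16. Cells in replicative senescence (RS) had been passaged to a population doubling level of 54 to 56 and received no agent. All conditions are cultures of the same cell strain, so they stand for 1 fibroblast strain and not for fibroblasts in general.

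A mature miRNA guides an Argonaute protein to mRNAs through its seed, the bases near its 5′ end, and miRNAs with the same seed are taken to share most of their targets. The miR-15/16 family is known for repressing mRNAs of G1 cyclins, cyclin-dependent kinases, checkpoint and mitotic kinases and the anti-apoptotic protein BCL2, and for slowing entry into S phase. The miR-15a and miR-16-1 genes lie in DLEU2, the region commonly lost in chronic lymphocytic leukaemia, and miR-195 and miR-497 are known for their part in cell cycle exit of heart and skeletal muscle.

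The mature sequences show which members can be expected to read the same sites. They are given 5′ to 3′ from RefSeq on GRCh38.p14 with bases 2 to 8, the seed, in capitals, and all 7 names were found there. The 5 members from the 5′ arm share 1 seed, as does miR-424-5p, a relative encoded on chromosome X, whereas miR-503-5p, the neighbour of miR-424, differs from it in the seed.
miR-16-5p: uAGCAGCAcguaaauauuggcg
miR-15b-5p: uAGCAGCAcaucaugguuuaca
miR-15a-5p: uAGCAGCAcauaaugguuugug
miR-195-5p: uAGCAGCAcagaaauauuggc
miR-497-5p: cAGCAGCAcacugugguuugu
miR-424-5p: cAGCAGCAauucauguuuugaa
miR-503-5p: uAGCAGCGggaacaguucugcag
The 2 members from the 3′ arm have seeds of their own and are therefore not members of that seed family.
miR-15b-3p: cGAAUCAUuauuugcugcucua
miR-16-2-3p: cCAAUAUUacugugcugcuuua
Over the whole mature sequence, seed included, miR-15a-5p and miR-15b-5p were identical at 18 of 22 positions and miR-16-5p and miR-195-5p at 19 of 21, whereas miR-16-5p and miR-497-5p were identical at 11 of 21.

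One sequence limit concerns miR-16-5p, which is made from a pair of genes. Both hairpins are shown with the 5′ and the 3′ arm in capitals, because the 5′ arm is the same in each and only the 3′ arm can tell the genes apart.
MIR16-1: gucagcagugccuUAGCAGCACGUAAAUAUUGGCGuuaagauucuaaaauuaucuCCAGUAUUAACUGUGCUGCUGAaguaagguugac
MIR16-2: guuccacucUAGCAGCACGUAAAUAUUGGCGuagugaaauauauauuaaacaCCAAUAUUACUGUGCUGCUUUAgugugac
MIR16-1 (chr13:50048973-50049061, minus strand) lies 57 bases from MIR15A (chr13:50049119-50049201). Both are inside DLEU2, a long non-coding RNA gene, MIR16-1 in an intron and MIR15A overlapping an annotated exon. MIR16-2 (chr3:160404745-160404825, plus strand) lies 59 bases from MIR15B (chr3:160404588-160404685), both in an intron of SMC4, which encodes a condensin subunit. MIR195 (chr17:7017615-7017701, minus strand) and MIR497 (chr17:7017911-7018022) lie 209 bases apart in an exon of the long non-coding RNA gene MIR497HG. Of the distinguishing arms, miR-16-2-3p had 714 counts in total and was found in all 36 libraries, whereas miR-16-1-3p had 3 counts in 2 libraries. The counts of miR-16-5p itself cannot be divided between the genes.

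Libraries held 81670 to 1933442 counts, the smallest being PMD-Sen D0 replicate 2 and the largest PMD-Sen D16 replicate 1, and 3 counts, taken as the floor of detection, correspond to 1.63 to 33.4 CPM. CPM are counts relative to the TMM-scaled total of each library, so they are shares of the miRNA pool, and the floor covers counting error only. The fibroblast marker miRNAs summed to 61825 to 138772 CPM, with none of the 7 listed markers at 0 in any condition. Blood cell markers, 4 of 6 of which were listed, summed to 194 to 206 CPM in Ctrl, 230 to 357 in PMD-Sen D16, 395 to 604 in DDR-Sen D16 and 497.4 to 1047 in RS. From D4 to D8, days with calls of miR-16-5p, their sum was between 277 and 419 CPM after SDS and between 638 and 1108 CPM after DXR. In Ctrl, D16 and RS nearly all of this was miR-486-5p, while miR-451a had at most 4 counts, miR-142-5p at most 2 and miR-223-3p 0. Both endothelial markers together had 42.9 to 55.9 CPM in Ctrl, 132 to 141 in PMD-Sen D16, 135 to 155 in DDR-Sen D16 and 119 to 199.6 in RS. The 3 muscle markers summed to 4.297 to 8.58 CPM in Ctrl, 7.07 to 13.2 in PMD-Sen D16, 15.6 to 28.8 in DDR-Sen D16 and 4.77 to 41.9 in RS. miR-122-5p, a liver miRNA also carried in serum, had 14.3 to 98.8 CPM in Ctrl. It had 129 to 264 CPM at D0 and D1 of PMD-Sen and 8.81 to 56.1 at D8 and D16, against 72.0 to 191 and 13.7 to 70.6 CPM in DDR-Sen, and 6.44 to 169 in RS. The part of all these markers in the results was not tested. In bulk cultures, fewer cells of a kind and less of an RNA per cell cannot be told apart.

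The family was led by miR-16-5p, with a median of 1712 CPM over the 36 libraries (rank 62 of 1508 by mean level), and miR-15b-5p, with 855 CPM (rank 93). miR-15a-5p, the guide strand from the DLEU2 cluster, had a median of 48.6 CPM (rank 233), and miR-16-2-3p, the passenger strand of MIR16-2, 41.5 CPM (rank 249). miR-15b-3p, the passenger strand of MIR15B, had 9.98 CPM (rank 346) and 0 counts in 2 libraries. These levels are compared between sequences of 21 or 22 bases, but adapter ligation can favour some sequences over others, so their order need not be the order in the cell.

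The cluster on chromosome 17 was close to the limit of detection. miR-195-5p had 131 counts in total, was at 0 in 6 libraries and exceeded 3 counts in 15. Its Ctrl libraries had 1 and 2 counts, its RS libraries 1 and 6, PMD-Sen D16 15 and 1 and DDR-Sen D16 2 and 5. The 2 libraries with the highest level, 25.6 and 22.1 CPM, were PMD-Sen D1 replicate 1 and PMD-Sen D6 replicate 2. The other D1 replicate had 0 counts. Both libraries of miR-195-5p were above both Ctrl libraries at D3 and D6 of PMD-Sen and at D3 and D8 of DDR-Sen. At D2 and D4 of PMD-Sen both were below, with 1 and 0 counts on each day. Both Ctrl libraries and both of DDR-Sen D3 (2 and 2 counts) were under the floor of 3 counts. The order of these libraries is therefore not read as a change. miR-497-5p had 40 counts in total, was at 0 in 22 libraries and exceeded 3 counts in 3. Both Ctrl libraries were at or under the floor for miR-497-5p, with 1 and 3 counts, as were both RS libraries with 0, so no fold change is given. The opposite arm miR-195-3p, which has the seed of miR-16-2-3p, had 17 counts in 11 libraries. A change of miR-195-5p or miR-497-5p was not detectable at this depth.

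**Figure D1:**
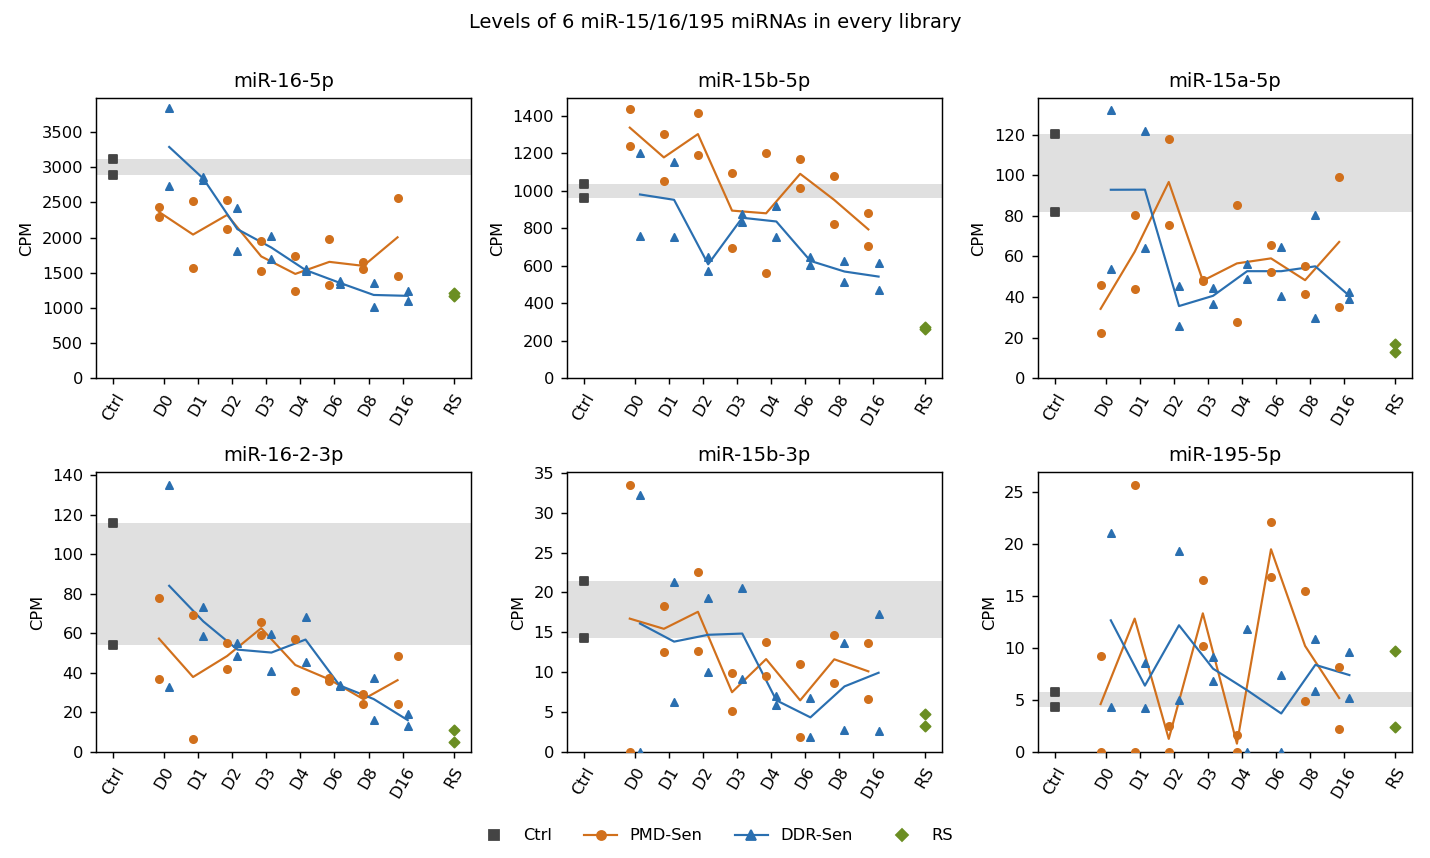
Level of 6 members in each of the 36 libraries, in CPM on linear axes, by condition in order of day (days are not spaced to scale). Each point is 1 library, lines join the means of the 2 replicates, and the grey band spans the Ctrl libraries. For miR-16-5p all PMD-Sen points lie below the band, for miR-15b-5p the PMD-Sen points of D0 to D2 lie above it, and the RS points of miR-16-2-3p, miR-15a-5p and miR-15b-5p are the lowest or among the lowest.

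miR-16-5p was downregulated in both series and in RS, and its course differed between the series. In Ctrl it was at 2896 and 3118 CPM. The PMD-Sen replicates had 2288 and 2441 CPM (D0), 2519 and 1565 (D1), 2529 and 2114 (D2), 1945 and 1518 (D3), 1731 and 1233 (D4), 1986 and 1322 (D6), 1548 and 1645 (D8), then 2558 and 1449 CPM (D16). Every PMD-Sen library, at all 8 time points, was below both Ctrl libraries, and the replicates of D16 were far apart. The DDR-Sen replicates had 2737 and 3841 CPM (D0), 2860.3 and 2818 (D1), 2425 and 1813 (D2), 1693 and 2020.3 (D3), 1518 and 1556 (D4), 1377 and 1336 (D6), 1356 and 1009.8 (D8), then 1099 and 1241 CPM (D16). RS stood at 1209.6 and 1162 CPM. The DDR-Sen replicates overlapped Ctrl at D0 only, and at D8 and D16 they overlapped RS. In the order of the 18 condition means, from DDR-Sen D0 (3289 CPM) to DDR-Sen D16 (1170.1 CPM), 14 of 17 neighbouring conditions had overlapping libraries.

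Against Ctrl, miR-16-5p passed the test (edgeR quasi-likelihood, adjusted p under 0.05) in RS, on 3 days of PMD-Sen (D4, D6, D8) and on 4 days of DDR-Sen (those and D16). The log2 fold changes in PMD-Sen were -1.02 (SE 0.26, adjusted p = 0.0253) at D4, -0.86 (SE 0.26, adjusted p = 0.0361) at D6 and -0.91 (SE 0.26, adjusted p = 0.0240) at D8. At PMD-Sen D16 it was -0.58 (SE 0.25, 95% interval -1.10 to -0.06, adjusted p = 0.101), which did not pass. In DDR-Sen the values were -0.97 (adjusted p = 0.0186) at D4, -1.15 (adjusted p = 0.00425) at D6, -1.34 (adjusted p = 0.000601) at D8 and -1.36 (SE 0.26, adjusted p = 0.000275) at D16. RS gave -1.34 (SE 0.26, adjusted p = 0.000237). All 17 comparisons with Ctrl share its 2 libraries. Without Ctrl replicate 1, or without Ctrl replicate 2, the 3 PMD-Sen calls and the call at DDR-Sen D4 were lost. They were also lost without either library of PMD-Sen D6, PMD-Sen D8 or DDR-Sen D4 in its own comparison, and without replicate 2 of PMD-Sen D4, with fold changes at PMD-Sen D4 from -1.29 to -0.80. The RS call and those of DDR-Sen from D6 on held with any 1 library left out. The PMD-Sen D6 call was also lost under total counts (adjusted p = 0.0657) and with no filter (adjusted p = 0.122), and that of PMD-Sen D4 with only the libraries compared in the fit (adjusted p = 0.1004). The values at PMD-Sen D6, PMD-Sen D8 and DDR-Sen D4 are below the study's threshold of a log2 fold change of 1. The value at PMD-Sen D16 depends on the replicate kept, being -1.05 without the deep replicate 1 and -0.23 without replicate 2. With both replicates it passed under DESeq2 (-0.68, adjusted p = 0.0418), after thinning (-0.77, adjusted p = 0.0414) and with only the libraries compared (-0.71, adjusted p = 0.0211). It did not pass under the others of the 9 alternatives.

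miR-15b-5p, which shares the seed of miR-16-5p and a cluster with MIR16-2, was downregulated in RS and at DDR-Sen D16. Its Ctrl libraries had 958 and 1033 CPM. In PMD-Sen the pairs of libraries had 1434 and 1237 CPM (D0), 1303 and 1049.7 (D1), 1189.6 and 1412 (D2), 1091 and 694 (D3), 1199 and 558 (D4), 1166 and 1012 (D6), 819.8 and 1079.7 (D8), then 879 and 707 CPM (D16). Both replicates lay above both Ctrl libraries at D0, D1 and D2 and below them at D16. In DDR-Sen they had 758 and 1200.3 CPM (D0), 751 and 1149.9 (D1), 643 and 570.1 (D2), 876 and 834 (D3), 754 and 916 (D4), 648 and 602 (D6), 623 and 513 (D8), then 614 and 468 CPM (D16). From D2 on, every DDR-Sen library was below both Ctrl libraries. RS had the lowest levels of all conditions, 260.05 and 272 CPM, and its libraries did not overlap those of the next condition in the order, DDR-Sen D16.

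Downregulation of miR-15b-5p against Ctrl passed the test in RS (log2 fold change -1.90, SE 0.30, adjusted p = 1.54e-05) and at DDR-Sen D16 (-0.88, SE 0.29, adjusted p = 0.0244). The RS call held with any 1 library left out. The DDR-Sen D16 call was lost without any 1 of its 4 libraries, with values between -1.04 and -0.70, and with no filter (-0.84, adjusted p = 0.0628), and the change was smaller than the study's threshold. The early PMD-Sen values were 0.42 (SE 0.29, adjusted p = 0.623) at D0, 0.24 (SE 0.28, adjusted p = 0.724) at D1 and 0.38 (SE 0.28, adjusted p = 0.620) at D2, none of which passed. At PMD-Sen D16 the difference was -0.32 (95% interval -0.90 to 0.25, adjusted p = 0.420).

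The scarcer members had wider errors, and the largest fold changes of the tested members against Ctrl were those of miR-16-2-3p and miR-15a-5p in RS. miR-15a-5p had 81.6 and 120 CPM in Ctrl (19 and 42 counts) and 16.7 and 12.9 CPM in RS (7 and 8 counts), a log2 fold change of -2.79 (SE 0.61, adjusted p = 0.00102). At D16 it had 99.0 and 35.2 CPM in PMD-Sen and 38.9 and 42.2 CPM in DDR-Sen, where the fold change of -1.32 did not pass (adjusted p = 0.0820). The DDR-Sen D16 value did pass the study's thresholds, an unadjusted p under 0.05 and an absolute log2 fold change over 1. It also passed with only the libraries compared in the fit (-1.24, adjusted p = 0.0114). Both libraries were below both Ctrl libraries in RS, in 5 of 8 PMD-Sen time points and in the 6 DDR-Sen time points from D2 on.

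miR-16-2-3p, the arm that marks the MIR16-2 gene, had 116 and 54.3 CPM in Ctrl (27 and 19 counts). It was at 4.77 and 11.3 CPM in RS (2 and 7 counts), with a log2 fold change of -3.25 (SE 0.71, adjusted p = 0.000924). In DDR-Sen D16 it had 13.0 and 19.2 CPM (5 and 10 counts) and a fold change of -2.33 (SE 0.66, adjusted p = 0.00942). The libraries of DDR-Sen D16 and RS did not overlap those of Ctrl. RS replicate 1 was under the floor of 3 counts, and the RS value ranged from -4.17 without RS replicate 2 to -2.64 without Ctrl replicate 1, the call holding with any 1 library left out. The DDR-Sen D16 call was lost without Ctrl replicate 1 (-1.72) and without either DDR-Sen D16 library. At PMD-Sen D16 it had 48.4 and 24.2 CPM, and the difference of -1.11 (95% interval -2.27 to 0.05, adjusted p = 0.166) did not pass.

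miR-15b-3p had 5 and 5 counts in Ctrl, 2 and 2 in RS, 25 and 3 in PMD-Sen D16 and 1 and 9 in DDR-Sen D16. Both RS libraries were under the floor of 3 counts, so the fitted difference in RS, which did not pass (adjusted p = 0.215), is not given as a change. No comparison called it. Against Ctrl its 95% interval at D16 ran from -2.56 to 1.29 in PMD-Sen and from -2.79 to 1.39 in DDR-Sen.

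**Figure D2:**
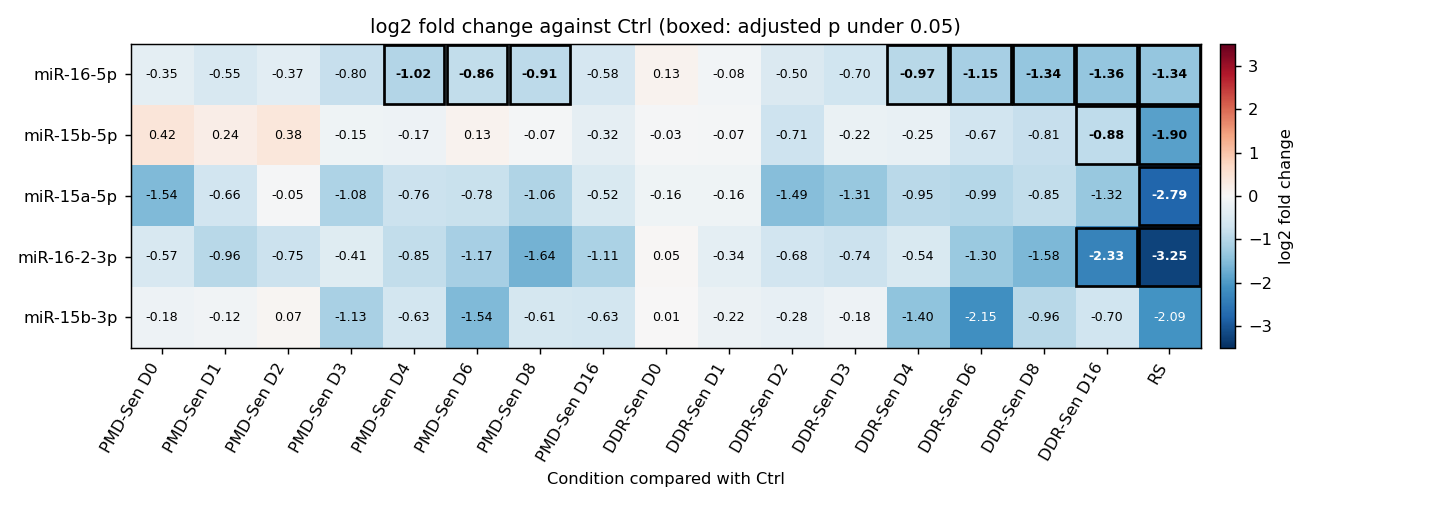
Log2 fold change of the 5 tested members (rows) in the 17 conditions against Ctrl (columns), with the value in each cell, blue for lower and red for higher. Boxes mark adjusted p under 0.05. The boxed cells are 8 of miR-16-5p, 2 of miR-15b-5p, 1 of miR-15a-5p and 2 of miR-16-2-3p, all lower than Ctrl. The RS libraries of miR-15b-3p were under the floor of 3 counts, so its RS cell is not read as a change.

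Counted over the family, 3 member-by-day values passed in PMD-Sen and 6 in DDR-Sen, all lower than Ctrl, and no member was called higher in any of the 17 conditions. Without Ctrl replicate 1 the counts were 0 and 3, without Ctrl replicate 2 they were 0 and 4, without PMD-Sen D8 replicate 2 that of PMD-Sen was 1, and with only the libraries compared in each fit they were 6 and 14. No share of all miRNAs is given for the fits of only the libraries compared, so those 2 counts have no background beside them. In PMD-Sen 1 of 5 members was called at D4, D6 and D8, where 3.89%, 6.67% and 10% of the 360 tested miRNAs were called. At PMD-Sen D0, D1, D2 and D3 no member was called, and the share over all miRNAs was 0.278%, 2.22%, 2.5% and 0.278%. The study's thresholds, applied to the edgeR values, called 1, 0, 0 and 0 members there, beside 19, 26, 23 and 10 of the 360 miRNAs. PMD-Sen D16 called 0 of 5 members by edgeR although 16.7% of all miRNAs were called there. At an unadjusted p under 0.05, 1 of the 5 passed, and DESeq2 called 1, miR-16-5p in both cases. Neither of these counts has a share of all miRNAs beside it. All 5 differences at PMD-Sen D16 were below 0, with a median of -0.58 against 0.05 over all tested miRNAs.

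In DDR-Sen no member was called from D0 to D3, where 0%, 0.278%, 0.278% and 4.44% of all miRNAs were. The study's thresholds on the edgeR values called 0, 0, 1 and 1 members there, beside 14, 25, 25 and 21 of the 360 miRNAs. Over all 8 time points, 5 member-by-day values after SDS and 8 after DXR were called by DESeq2. No share of all miRNAs called by DESeq2 is given, so both counts stand without a background. Each percentage in this paragraph is from edgeR. At D4, D6 and D8 of DDR-Sen edgeR called 1 of 5, beside 6.67%, 10.6% and 11.4%. DDR-Sen D16 called 3 of 5 members beside 23.1% of all miRNAs, with a median of -1.32 against -0.03. RS called 4 of 5 beside 22.5%. The median in RS is not given, because it is the fitted value of miR-15b-3p, whose RS libraries were under the floor. With 1 of the libraries left out, the DDR-Sen D16 count was 1 or 2 and the RS count stayed at 4.

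The change over time within a series was tested as the mean of D8 and D16 against the mean of D0 and D1, a contrast that uses no Ctrl library. In DDR-Sen, 3 of 5 members were downregulated late, beside 25.3% of all miRNAs. The values were -1.38 for miR-16-5p (SE 0.18, adjusted p = 1.51e-06), -0.79 for miR-15b-5p (SE 0.20, adjusted p = 0.00390) and -1.81 for miR-16-2-3p (SE 0.44, adjusted p = 0.00282). The first 2 held with any 1 library left out, and miR-16-2-3p was lost without DDR-Sen D0 replicate 1 (-1.12). miR-15a-5p, at -0.92 (SE 0.38, adjusted p = 0.0711), did not pass.

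In PMD-Sen, where 31.9% of all miRNAs were called, only miR-15b-5p of the 5 members was, at -0.53 (SE 0.20, adjusted p = 0.0427). This call was lost without any 1 of 5 of its 8 libraries, namely replicate 1 of D0, replicate 1 of D1, either replicate of D8 and replicate 2 of D16, with values between -0.62 and -0.44, and it was also lost under total counts, no filter, only the libraries compared and when D1 alone stood for the early time points. miR-16-5p changed by -0.30 (95% interval -0.67 to 0.07, adjusted p = 0.217).

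The difference of these changes between the series passed for miR-16-5p, which was called higher by 1.08 in PMD-Sen than in DDR-Sen (SE 0.26, 95% interval 0.55 to 1.60, adjusted p = 0.00643), beside 9.44% of all miRNAs. It held with any 1 of the 16 libraries left out, with values from 0.84 to 1.27. The early libraries of PMD-Sen, from 1565 to 2519 CPM, were already below those of DDR-Sen, from 2737 to 3841 CPM, while the late ones, from 1449 to 2558 CPM in PMD-Sen, were above those of DDR-Sen, from 1009.8 to 1356 CPM. For miR-15a-5p the same difference was 1.23 (95% interval 0.01 to 2.44, adjusted p = 0.175), and for miR-15b-5p it was 0.26 (-0.32 to 0.84, adjusted p = 0.607).

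**Figure D3:**
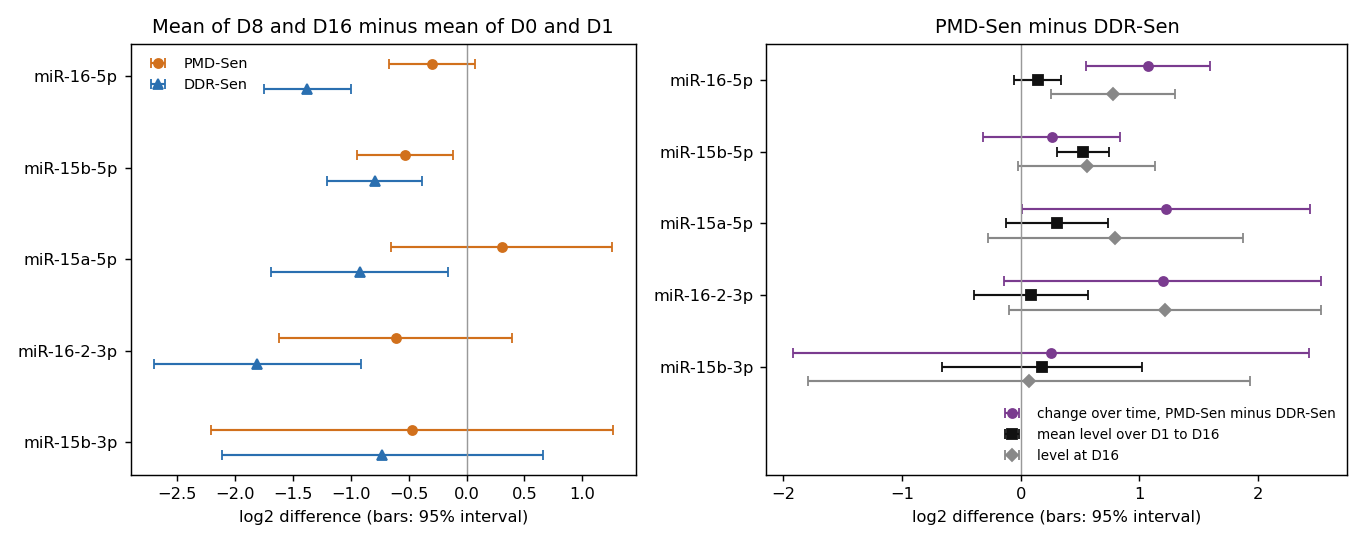
Log2 differences of the 5 tested members with their 95% intervals. The left panel gives the late minus early change in PMD-Sen and DDR-Sen, and the right panel gives PMD-Sen minus DDR-Sen for that change, for the mean level over D1 to D16 and for the level at D16. The intervals of the change for miR-16-5p lie apart in the left panel, and in the right panel the mean level of miR-15b-5p lies above 0.

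Compared day by day over D1 to D16, miR-15b-5p was higher in PMD-Sen than in DDR-Sen, by 0.52 on the log2 scale (SE 0.11, adjusted p = 0.000536), and it was the only 1 of 5 members called, beside 20% of all miRNAs. The call held with any 1 of the 28 libraries left out, with values from 0.43 to 0.59, but the difference is below the study's threshold of 1. For miR-16-5p the difference in mean level over the same days was 0.15 (95% interval -0.05 to 0.34, adjusted p = 0.320). Scaling by total counts moved the median of all miRNAs by 0.17 in this comparison, and miR-16-5p then passed as well, at 0.32.

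At single days, PMD-Sen and DDR-Sen were compared directly, the days before D16 having been added after the data were seen. At D2 miR-15b-5p was 1189.6 and 1412 CPM in PMD-Sen and 643 and 570.1 CPM in DDR-Sen, a difference of 1.10 (SE 0.29, adjusted p = 0.0240). The replicates of PMD-Sen D2 lay above both Ctrl libraries and those of DDR-Sen D2 below both. The call was lost without PMD-Sen D2 replicate 2, DDR-Sen D2 replicate 1 or DDR-Sen D2 replicate 2, with values from 0.93 to 1.22 over the single libraries left out. It was also lost after thinning all libraries to the smallest (0.84, adjusted p = 0.185), the adjusted p over the alternatives being 0.00484 to 0.185. miR-15b-5p was the 1 member of 5 called at D2, beside 4.17% of all miRNAs, and miR-15a-5p, with a difference of 1.44 (95% interval 0.27 to 2.60, adjusted p = 0.183), had an unadjusted p of 0.0173. No member was called at D0, D1, D3, D4, D6 and D8, where 1.67%, 1.94%, 0.833%, 3.33%, 0.278% and 0% of all miRNAs were, and on these days only miR-15b-5p had an unadjusted p under 0.05, with differences of 0.80 at D6 and 0.74 at D8. DESeq2 values for these days are not given. At D16, 0 members were called by edgeR, beside 0.556% of all miRNAs, and 0 by DESeq2, for which no such share is given. Only miR-16-5p had an unadjusted p under 0.05 there, with a difference of 0.78 (95% interval 0.26 to 1.30, adjusted p = 0.157).

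RS was set against the last time point of each series. Against RS, PMD-Sen D16 called 3 of 5 members, all higher in PMD-Sen D16, beside 9.17% of all miRNAs. They were miR-15b-5p (1.58, SE 0.29, adjusted p = 0.000533), miR-15a-5p (2.26, SE 0.59, adjusted p = 0.0131) and miR-16-2-3p (2.14, SE 0.69, adjusted p = 0.0474). The first held with any 1 library left out. With only the libraries compared in the fit all 3 calls were lost, that of miR-15b-5p at 1.53 (adjusted p = 0.0690). With the replicate block miR-16-2-3p was lost (2.05, adjusted p = 0.0520) and miR-16-5p passed (0.74, adjusted p = 0.0475). Thinning ended the call of miR-15a-5p (1.46, adjusted p = 0.335), and DESeq2's size factors that of miR-16-2-3p (2.08, adjusted p = 0.0576). The calls of miR-15a-5p and miR-16-2-3p were lost without PMD-Sen D16 replicate 1 (1.26 and 1.48) and without RS replicate 1, and that of miR-15a-5p also without RS replicate 2. miR-16-5p differed by 0.76 (95% interval 0.24 to 1.28, adjusted p = 0.0533). Besides the replicate block, it passed under DESeq2 (0.71, adjusted p = 0.0484) and after thinning (0.90, adjusted p = 0.0454).

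DDR-Sen D16 called 1 of 5 members against RS, beside 4.44% of all miRNAs. It was miR-15b-5p, at 614 and 468 CPM against 260.05 and 272 CPM (1.02, SE 0.29, adjusted p = 0.0385), and the call was lost without any 1 of the 4 libraries and under total counts, no filter, thinning and only the libraries compared. miR-16-5p differed from RS by -0.018 in DDR-Sen D16 (95% interval -0.54 to 0.50), and under DESeq2's size factors the sign of this value turned (0.023).

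The relation between both abundant guides was followed within libraries, where it does not depend on the scaling between them. These ratios are a description without a test. In Ctrl, miR-15b-5p had 33.1 and 33.1 counts per 100 of miR-16-5p. All 16 PMD-Sen libraries were above Ctrl, with a lowest value of 34.4, a median of 54.5 and a highest of 76.6 per 100. In DDR-Sen the ratio was between 26.3 and 40.8 per 100 from D0 to D2 and between 37.7 and 58.9 from D3 to D16, so that D0 and D2 were below Ctrl in both replicates and the 5 time points from D3 on above it. RS, with 21.5 and 23.4 per 100, was below every other library. The arm miR-16-2-3p had 4.01 and 1.74 counts per 100 of miR-16-5p in Ctrl and 1.89 and 1.67 in PMD-Sen D16. It had 1.18 and 1.55 in DDR-Sen D16 and 0.394 and 0.970 in RS, the RS values resting on 2 and 7 counts.

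**Figure D4:**
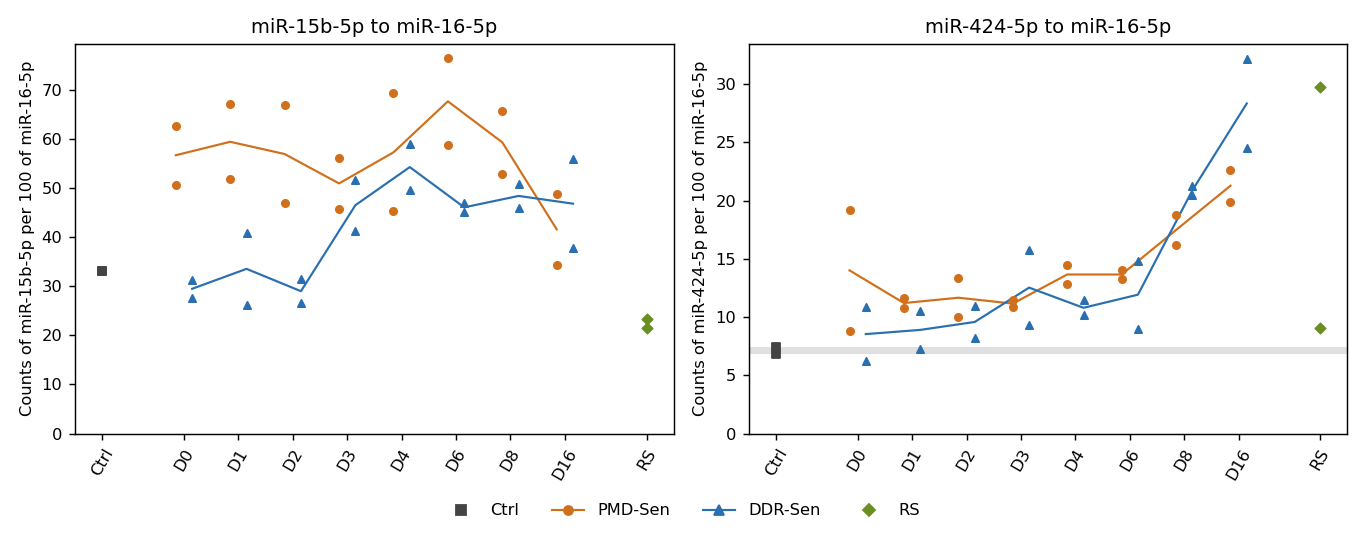
Counts of miR-15b-5p (left) and miR-424-5p (right) per 100 counts of miR-16-5p in each library, on linear axes, by condition in order of day (not to scale). Each point is 1 library, lines join the means of the replicates, and the grey band spans the Ctrl libraries. On the left the PMD-Sen points stand between 34.4 and 76.6, above Ctrl, and the RS points are lowest. On the right the D16 points of both series stand between 19.9 and 32.1, above the Ctrl values of 7.42 and 6.79.

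Summed over the 5 guides with the shared seed, the family was at 4115 CPM ± 240.4 (SD, n = 2) in Ctrl, 2872 ± 958 in PMD-Sen D16, 1760.5 ± 0.604 in DDR-Sen D16 and 1473 ± 22.5 in RS. miR-424-5p, the seed relative on chromosome X, was not called in any of these conditions. It had 215 and 212 CPM in Ctrl, 579 and 288 in PMD-Sen D16, 269.6 and 399 in DDR-Sen D16 and 109.7 and 346 in RS. Its log2 fold changes were 1.04 (SE 0.42, adjusted p = 0.0779) in PMD-Sen D16, 0.65 (adjusted p = 0.288) in DDR-Sen D16 and 0.12 (adjusted p = 0.784) in RS, none of which passed. Of all counts with this seed, miR-424-5p therefore made up 4.94% ± 0.324 (SD, n = 2) in Ctrl, 12.8% ± 1.71 in PMD-Sen D16, 15.9% ± 3.67 in DDR-Sen D16 and, with the widest spread between replicates, 13.0% ± 8.72 in RS. miR-16-5p made up 69.5% ± 0.205 in Ctrl, 60.1% ± 2.56 in PMD-Sen D16, 55.8% ± 2.34 in DDR-Sen D16 and 70.1% ± 7.92 in RS. miR-503-5p, the neighbour of miR-424 with the other seed, had 2110 and 2099 CPM in Ctrl and differed by 0.34 (adjusted p = 0.196) in PMD-Sen D16, -0.06 (adjusted p = 0.822) in DDR-Sen D16 and -0.16 (adjusted p = 0.574) in RS. miR-6838-5p, the remaining miRNA with the shared seed, had 6 counts in 5 libraries.

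**Figure D5:**
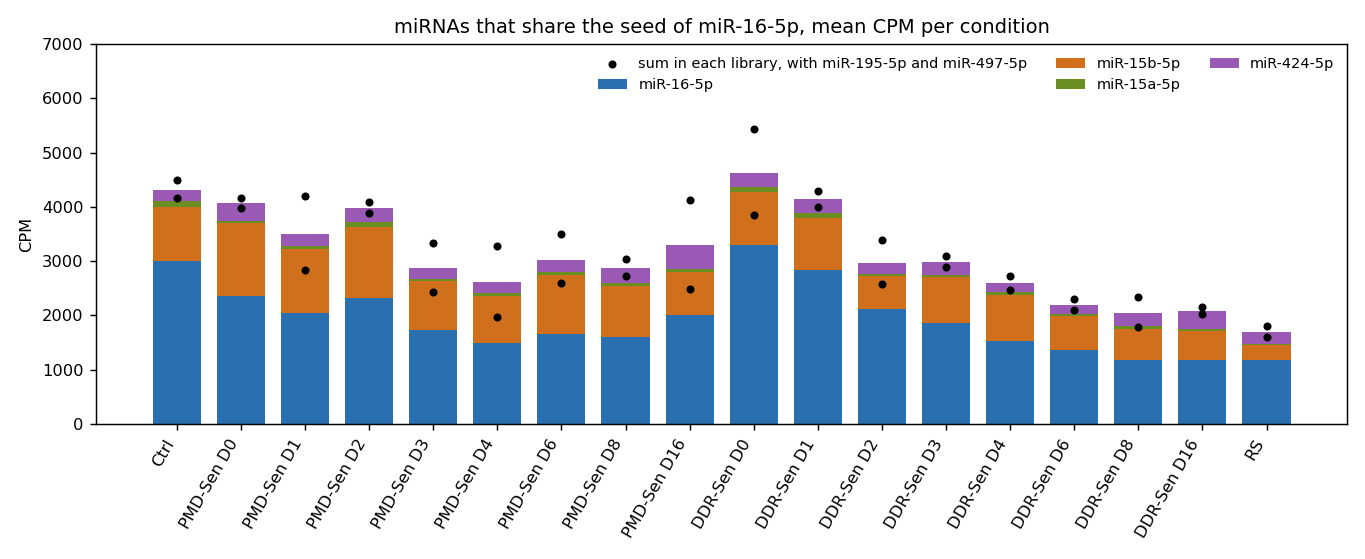
Mean CPM per condition (bars, n = 2) of the 4 abundant miRNAs with the shared seed, stacked from miR-16-5p at the bottom to miR-424-5p at the top. Black points are the sums in each library, which also hold the few counts of miR-195-5p and miR-497-5p. The blue and orange parts are smaller in late DDR-Sen and RS than in Ctrl, and the purple part is not.

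Across the 18 condition means of log2 CPM, the tested miRNAs with the course most like miR-16-5p were miR-145-5p (Spearman's rho 0.938), miR-93-5p (0.928) and miR-20a-5p (0.907) of 359 compared. miR-93-5p and miR-20a-5p belong to the miR-17 family, and miR-145-5p is a miRNA abundant in fibroblasts and smooth muscle. For miR-15b-5p they were miR-17-5p (0.827), miR-92a-3p (0.781) and miR-155-5p (0.761), and for miR-15a-5p miR-1254 (0.684), miR-18a-5p (0.668) and miR-3615 (0.635). miR-16-2-3p was most like miR-145-3p (0.810), miR-629-5p (0.769) and miR-214-5p (0.754), and miR-15b-3p most like miR-93-5p (0.717), miR-106b-3p (0.707) and miR-92a-1-5p (0.697). No member was among the 3 most like another member. miR-16-5p and miR-15b-5p had a rho of 0.701, the 10th highest for miR-15b-5p, and miR-16-5p and its arm miR-16-2-3p one of 0.738. All these values describe the same 36 libraries and their shared scaling, and 2 series of consecutive days make many of the points alike.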

How the data were processed

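Small RNA of 36 WI-38 libraries was prepared by the authors with NEXTFLEX v3 adapters and sequenced on an Illumina MiSeq system, and reads were trimmed, mapped to GRCh38 and miRBase and counted with exceRpt 4.6.2. The authors deposited expected counts per mature miRNA, not normalized, in which reads that fit several miRNAs are split. Of 54288 values 1003 were fractional, 3 of them for miR-16-5p, and all were rounded here. 0 columns had no sample. Libraries held 81670 to 1933442 counts. Tests used edgeR 4.0.16 in R 4.3.3 (TMM, filterByExpr, quasi-likelihood F test over all 18 conditions, 360 miRNAs tested, biological coefficient of variation 20.9%), a call being a Benjamini-Hochberg adjusted p under 0.05. The alternatives were DESeq2 1.42.0 with adjusted p, the study's thresholds (unadjusted p under 0.05 and an absolute log2 fold change over 1, used there with DESeq2) applied to the edgeR values, other scalings and filters, the libraries compared alone, thinning to the smallest library, a replicate block and leaving out each library. The fit was tested on simulated data, the outcome of which is not given here and is not used for any result. Log2 CPM used a prior count of 2. Intervals are 95%.

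The miRNAs named are the 7 members, the opposite arms of their hairpins, miRNAs with a member's seed, miR-503-5p, and the 3 tested miRNAs most like each tested member. Members and lists were chosen with earlier results of these data known. The labels call replicates biological without saying how they were separated, so p-values measure only the spread between these samples. With 1 library of a condition left out, the other is assumed to vary like the remaining conditions. Sequences and coordinates are from RefSeq (GRCh38.p14), and overlapping genes from GENCODE on GRCh38. mRNA and transfection data were not analysed here. Plots used matplotlib 3.10.9.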

Additional observations from a re-analysis of the deposited data

Results flagged for a closer look

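miR-16-5p differed between the series in its change over time. Between early and late time points it changed by -0.30 on the log2 scale after SDS and by -1.38 after DXR, and the test of this difference gave 1.08 (edgeR, adjusted p = 0.00643). The early libraries were already lower after SDS (1565 to 2519 CPM) than after DXR (2737 to 3841 CPM). Every PMD-Sen library was below both Ctrl libraries.

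At D2, a day added after the data were seen, both PMD-Sen libraries of miR-15b-5p lay above both Ctrl libraries and both DDR-Sen libraries below them. The direct difference was 1.10 (edgeR, adjusted p = 0.0240), whereas neither series passed the test against Ctrl at D2 (0.38 in PMD-Sen and -0.71 in DDR-Sen). This call was lost without any 1 of 3 of its 4 libraries, PMD-Sen D2 replicate 2 and either DDR-Sen D2 library, and after thinning to the smallest library (0.84, adjusted p = 0.185).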

How the results depend on the processing

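With 2 libraries a condition and few counts for the scarce members, precision is limited by both. The alternatives include the study's thresholds on the same edgeR fold changes, under which no direction could change. Over the alternatives other than leaving out a library, 436 member values kept their direction and side of the threshold, 26 lost a call, 14 gained one and 9 changed sign. The cause was not tested unless a setting tests fewer miRNAs or samples. For single days before D16, only counts under the study's thresholds, applied to the edgeR values, are listed. Against Ctrl they were 1 at PMD-Sen D0, DDR-Sen D2 and DDR-Sen D3 (as reported 0), beside 19, 25 and 21 of the 360 miRNAs. They were 0 at PMD-Sen D6 and DDR-Sen D4 (as reported 1), beside 33 and 33. They were 2 at DDR-Sen D6, at DDR-Sen D8 and for PMD-Sen D2 against DDR-Sen D2 (as reported 1), beside 42, 46 and 29. In the other comparisons, the counts of members called that moved by over 1.5 times, or to or from 0, were as follows. Smaller shifts are not listed. DESeq2 called 1 at PMD-Sen D16 (as reported 0) and 5 over D0 to D16 of PMD-Sen (as reported 3). The study's thresholds, applied to the edgeR values, gave 0 for the late change in PMD-Sen (as reported 1), 2 for its difference from DDR-Sen (as reported 1), 0 for the series over D1 to D16 (as reported 1) and 2 for DDR-Sen D16 against RS (as reported 1). Over all 360 miRNAs the same thresholds called 68, 52, 8 and 23, in that order. Total counts gave 0 for the late change in PMD-Sen, 2 for the series over D1 to D16 and 0 for DDR-Sen D16 against RS. No filter gave 0 for the late change in PMD-Sen and 0 for DDR-Sen D16 against RS. Fitting only the libraries compared gave 2 at PMD-Sen D16, 0 for the late change in PMD-Sen, 1 for PMD-Sen D16 against DDR-Sen D16 (as reported 0), 0 for PMD-Sen D16 against RS (as reported 3), 0 for DDR-Sen D16 against RS, and 6 and 14 over D0 to D16 of PMD-Sen and DDR-Sen (as reported 3 and 6). Thinning, which left 240 miRNAs and 3 members to test, gave 1 at PMD-Sen D16 and 0 for DDR-Sen D16 against RS. D1 alone as the early time point, added after seeing the data, gave 0 for the late change in PMD-Sen. No share of all miRNAs is given for the other settings in this section or with 1 library left out. Those counts stand without a background.

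The sign of miR-15b-3p in PMD-Sen D16 against DDR-Sen D16 (0.07) turned under DESeq2 (-0.080), its size factors (-0.041) and the replicate block (-0.070). That of miR-16-5p in DDR-Sen D16 against RS (-0.018) turned under DESeq2 (0.023), its size factors (0.023), total counts (0.020), the libraries compared alone (0.014) and thinning (0.21). miR-15a-5p in late against early PMD-Sen (0.30) turned with D1 alone (-0.14).

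With 1 library left out, the count of members called was 4 in RS, 1 to 2 for DDR-Sen D16 and 0 to 1 for PMD-Sen D16. It ranged from 0 to 4 over D0 to D16 of PMD-Sen and 3 to 6 of DDR-Sen, 0 to 2 for the late change in PMD-Sen, 3 to 4 in DDR-Sen, 1 to 2 for their difference, 0 to 1 for PMD-Sen D16 against DDR-Sen D16 and 1 to 4 for PMD-Sen D16 against RS. It was 1 for the series over D1 to D16 and 0 for DDR-Sen D16 against RS in each case. Signs turned for miR-15b-3p in DDR-Sen D16 against Ctrl (-2.62 to 0.030) and RS (-0.53 to 2.16), in PMD-Sen D16 against DDR-Sen D16 (-0.66 to 1.99), in the late change of DDR-Sen (-1.69 to 2.25) and PMD-Sen (-1.02 to 2.43), in their difference (-2.72 to 3.16) and over D1 to D16 (-0.031 to 0.46). They also turned for miR-16-5p in DDR-Sen D16 against RS (-0.11 to 0.16), miR-15a-5p in PMD-Sen D16 against DDR-Sen D16 (-0.20 to 1.28) and in the late change of PMD-Sen (-0.20 to 0.63), and miR-16-2-3p in that late change (-0.96 to 0.74) and over D1 to D16 (-0.30 to 0.21).

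Whether replicate numbers mark pairs is not stated by the labels and was not settled here. Over 153 pairs of conditions the correlation of deviations was between -0.46 and 0.37, with a median of 0.042, and 53 exceeded 0.1. With the replicate block 4 members were called for the late change in DDR-Sen (as reported 3, miR-15a-5p added at -0.98), and in PMD-Sen D16 against RS miR-16-2-3p lost its call (2.05) and miR-16-5p gained one (0.74). The other counts of calls were the same.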
